A study of Mus musculus with 8 samples.

Results

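Insulin signaling in the liver was followed through 9 listed genes, *Insr*, *Irs1*, *Irs2*, *Pik3r1*, *Akt1*, *Akt2*, *Foxo1*, *Foxo3* and *Grb14*, chosen by gene symbol. The array annotation names a probe-set of its own for 7 of them, out of 14860 genes that have one, and each of these 7 has 1 probe-set. *Irs2* and *Akt2* were not analysed here. Livers came from wild type male C57Bl6J mice that were 6 weeks old when the diets began. For 6 weeks 4 mice received the Lieber-DeCarli liquid alcohol diet, raised in steps to 6.2% alcohol and 35% of the calories, and 4 mice were pair-fed a liquid diet of equal calories with maltose and dextrin. All 8 mice thus lived on a liquid diet. The methods describe the animals as littermates, and the labels do not say which mice shared a litter or were fed as a pair. RNA of the whole liver was hybridized to Affymetrix Mouse Exon 1.0 ST arrays, 1 for each mouse. The alcohol fed mice are WA-811, WA-817, WA-833 and WA-836, and the controls are WC-820, WC-824, WC-834 and WC-840. The values are log2 intensities summarized by RMA, which can be compared between mice but not between genes.

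In hepatocytes, insulin binds the receptor tyrosine kinase encoded by *Insr*, which phosphorylates the docking proteins IRS1 and IRS2. These recruit PI3-kinase through its regulatory subunit p85 alpha, the product of *Pik3r1*, and the lipid it makes brings the kinases AKT1 and AKT2 to the membrane. AKT phosphorylates the transcription factors FOXO1 and FOXO3, which then leave the nucleus, so that genes of glucose production fall silent after a meal. GRB14 is an adaptor that binds the activated insulin receptor and inhibits its kinase. Phosphorylation, the main way this pathway is switched, is not seen by an RNA array.

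*Grb14* fell and *Irs1* rose in the livers of alcohol fed mice, and the other 5 measured genes did not pass the test. The promoters of the 2 genes that changed are shown as a description, and their part in the differences was not tested. RefSeq promoter windows (build GRCm38.p6) were at hand for 8 of the 9 genes, all but *Insr*, and 250 bases before the annotated start are given, 5′ to 3′ on the strand of the gene. Capitals mark TGTTTTG, the core of the insulin response element, and CACGTG, the E-box. The *Irs1* window is chr1:82291440-82291689 and the *Grb14* window is chr2:65022767-65023016, both on the minus strand. The third line holds 48 bases of the *Irs2* promoter, chr8:11008944-11008991 on the minus strand, for comparison with *Irs1*.
*Irs1*: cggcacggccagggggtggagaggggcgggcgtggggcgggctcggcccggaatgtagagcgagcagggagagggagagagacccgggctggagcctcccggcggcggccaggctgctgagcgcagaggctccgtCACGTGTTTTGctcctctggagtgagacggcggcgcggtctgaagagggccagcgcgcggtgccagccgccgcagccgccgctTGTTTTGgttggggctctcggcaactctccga
*Grb14*: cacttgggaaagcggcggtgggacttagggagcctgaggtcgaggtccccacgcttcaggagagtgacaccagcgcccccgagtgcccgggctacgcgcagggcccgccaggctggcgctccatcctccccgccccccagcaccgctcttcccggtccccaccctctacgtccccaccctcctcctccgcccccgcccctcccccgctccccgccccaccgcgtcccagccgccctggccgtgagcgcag
*Irs2*: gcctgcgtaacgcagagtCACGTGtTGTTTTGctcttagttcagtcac

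Both docking protein genes carry an E-box with an insulin response element core just behind it. In the *Irs1* promoter the E-box starts 115 bases before the transcription start and the core 111 bases before it, so that they share letters. In the *Irs2* promoter they start 44 and 37 bases before. *Irs1* has another core 32 bases before the start. On either strand CACGTG was found in 6.02% and TGTTTTG in 5.56% of the 32851 RefSeq promoter windows of the same length. The pair on 1 strand, with no more than 20 bases from start to start, was found in 10 windows (0.0304%), *Irs1* and *Irs2* among them. The search for the pair was made after these promoters had been seen. The *Grb14* window holds neither motif, nor TGTTTAC, the core of the FOXO element, which 3.17% of all windows hold on either strand and which *Akt1* holds in 1 of its windows. A match of letters is a description and not a site of binding.

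*Grb14*, the inhibitor at the receptor, was lower in every mouse fed alcohol. Its log2 values were 7.95, 7.54, 7.65 and 7.63 in WA-811, WA-817, WA-833 and WA-836. They were 8.43, 8.45, 8.37 and 8.61 in WC-820, WC-824, WC-834 and WC-840. The groups did not overlap, and WA-811 lay closest to the controls. Means were 7.69 ± 0.18 with alcohol and 8.46 ± 0.11 without it (SD, n = 4 each). *Grb14* was therefore 1.70-fold lower, a log2 difference of -0.77 ± 0.10 (standard error) with a 95% interval of -1.00 to -0.54 and an adjusted p of 0.00264 from limma, a linear model that shares the variance of all probe-sets. The exact two-sided permutation test gave p = 0.0286, the smallest that 4 mice against 4 allow. *Grb14* also passed the study's own thresholds, a P of 0.0001 with 1.5-fold. In RNA of whole liver, fewer cells of a type and less RNA per cell cannot be told apart.

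**Figure D1:**
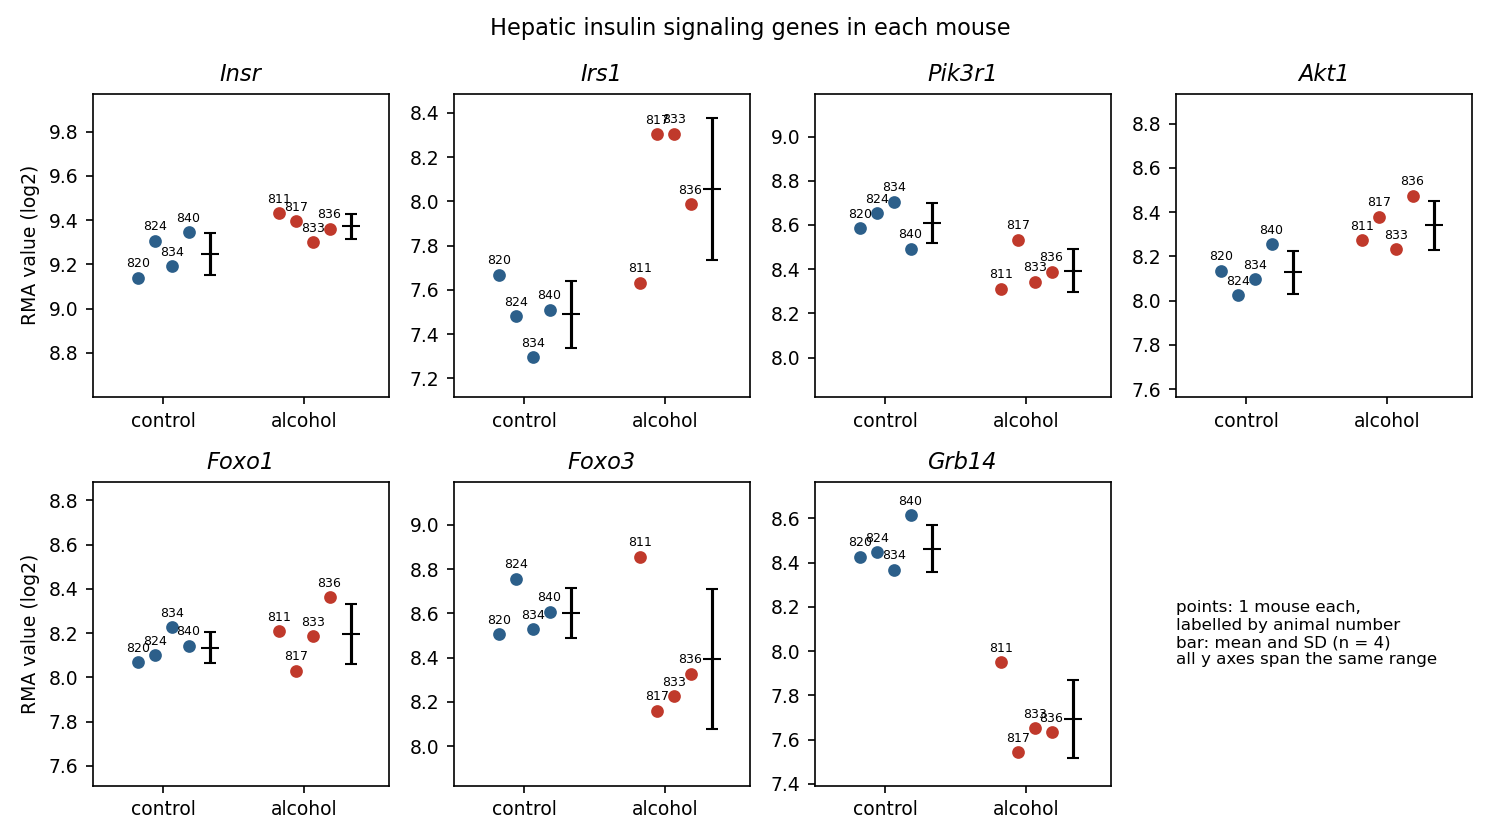
RMA log2 values of the 7 measured genes in each mouse, control in blue and alcohol in red, with the mean and SD (n = 4) beside the points and all axes spanning the same range. *Grb14* is the gene whose groups are apart, with 7.54 to 7.95 on alcohol and 8.37 to 8.61 on control, while for *Irs1* WA-811 lies among the controls.

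*Irs1*, the docking protein of the receptor, rose on the alcohol diet with less certainty. The log2 values were 7.63, 8.30, 8.31 and 7.99 in WA-811, WA-817, WA-833 and WA-836. In the control mice they were 7.67, 7.48, 7.30 and 7.51, in the order WC-820, WC-824, WC-834 and WC-840. The groups overlapped, since WA-811 lay below WC-820. The mean was 8.06 ± 0.32 on alcohol and 7.49 ± 0.15 on control (SD, n = 4 each), a 1.48-fold rise. The log2 difference was 0.57 ± 0.15 (standard error, 95% interval 0.22 to 0.91, adjusted p = 0.0359 from limma, exact two-sided permutation p = 0.0571). Without WA-811 the difference was 0.71 (adjusted p = 0.0108 from limma). Leaving out WC-820 also kept the call. The call was lost when WC-840, WC-834, WC-824, WA-836, WA-833 or WA-817 was left out (adjusted p of 0.0587 to 0.0950 from limma). It was also lost without the filter on low values and after each array was centred on its median (adjusted p = 0.112 and 0.0549 from limma). Without moderation of the variance and at the study's thresholds it was lost too.

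With 1 higher and 1 lower gene of 7, the counts stand against 10.2% of all probe-sets kept that were higher and 5.98% that were lower at an adjusted p under 0.05. These shares were 8.62% and 8.03% after quantile normalization, and 6.99% and 8.49% after each array was centred on its median. At the study's thresholds 0.757% were lower, *Grb14* among them, and in 8.14% every alcohol fed mouse lay below every control. By size of the difference *Grb14* lay above 96.8% and *Irs1* above 93.3% of the probe-sets kept. The median difference over all probe-sets kept was 0.05, and 60% of them were higher on alcohol. The array medians did not overlap, with 5.10 to 5.14 on alcohol and 5.04 to 5.08 on control.

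**Figure D2:**
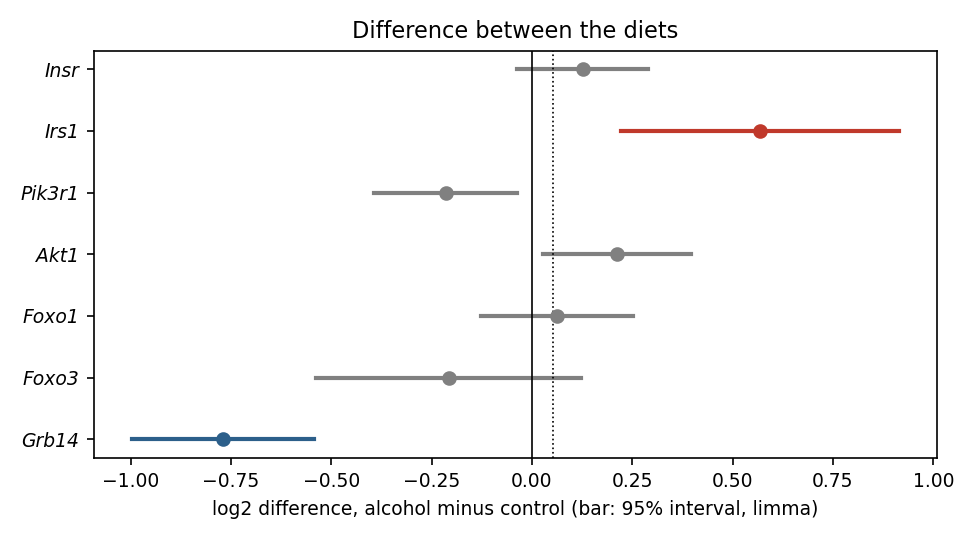
Log2 difference between the alcohol and the control diet for each measured gene, with its 95% interval from limma (red, called higher; blue, called lower; grey, not called; dotted line, median of all probe-sets kept). *Grb14* lies at -0.77 and *Irs1* at 0.57, and the other genes lie between -0.21 and 0.21.

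The receptor gene *Insr* had log2 values of 9.43, 9.40, 9.30 and 9.36 in WA-811, WA-817, WA-833 and WA-836. The controls WC-820, WC-824, WC-834 and WC-840 had 9.14, 9.31, 9.19 and 9.35. WC-824 and WC-840 lay within the range of the alcohol fed mice. The difference was 0.13 ± 0.07 (standard error, 95% interval -0.04 to 0.29, adjusted p = 0.269 from limma). A change of *Insr* beyond 1.5-fold in either direction lies outside this interval.

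*Pik3r1* and *Akt1*, the steps between the docking proteins and FOXO, differed by small amounts in opposite directions. *Pik3r1* had log2 values of 8.31, 8.53, 8.34 and 8.39 in WA-811, WA-817, WA-833 and WA-836, and of 8.59, 8.65, 8.70 and 8.49 in WC-820, WC-824, WC-834 and WC-840. The overlap came from WA-817 and WC-840. The difference was -0.21 ± 0.08 (standard error, 95% interval -0.39 to -0.04, adjusted p = 0.0956 from limma). When each array was centred on its median it was -0.27 and passed the test (adjusted p = 0.0445 from limma). *Akt1*, the gene of 1 of the AKT kinases, had log2 values of 8.27, 8.38, 8.23 and 8.47 on alcohol and of 8.13, 8.03, 8.10 and 8.26 on control, in the same order of mice. WC-840 alone of the controls lay within the alcohol range. The difference was 0.21 ± 0.08 (standard error, 95% interval 0.03 to 0.40, adjusted p = 0.111 from limma). With *Grb14* and *Irs1*, these genes make 4 of 7 with an unadjusted p under 0.05 in limma, beside 31.9% of all probe-sets kept.

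The transcription factor genes *Foxo1* and *Foxo3* were not called. *Foxo1* had log2 values of 8.21, 8.03, 8.18 and 8.36 in WA-811, WA-817, WA-833 and WA-836, around those of the controls, 8.07, 8.10, 8.23 and 8.14 (WC-820, WC-824, WC-834 and WC-840). The difference was 0.06 ± 0.08 (standard error, 95% interval -0.13 to 0.25, adjusted p = 0.658 from limma). *Foxo3* had log2 values of 8.85, 8.16, 8.23 and 8.33 on alcohol and of 8.51, 8.76, 8.53 and 8.61 on control, in the same order of mice. WA-811 was the highest of all 8 mice and the other 3 alcohol fed mice were lower than every control. The difference was -0.21 ± 0.15 (standard error, 95% interval -0.54 to 0.12, adjusted p = 0.365 from limma), and without WA-811 it was -0.36 and passed the test (adjusted p = 0.0347 from limma).

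WA-811 was often the highest mouse in the genes that FOXO switches on when insulin is low. It had the highest value of all 8 mice in 8 of the 15 FOXO target genes that passed the filter, *Pck1*, *G6pc*, *Igfbp1*, *Ppargc1a*, *Pdk4*, *Sod2*, *Cat* and *Txnip*, and in 13.2% of all probe-sets kept. Of the other 7 targets WA-833 was highest in 4, *Mttp*, *Apoc3*, *Ccng2* and *Cited2*, and WA-811 had the lowest *Cited2* of all mice (8.17). This was looked at after the values had been seen and was not tested. Dixon's test for a single outlying mouse, run on the genes named by rule, passed its 95% critical value in 0 of 36 groups. It reads 1 gene and 4 mice at a time, so it cannot show a mouse that is high in many genes. Of the 8 targets in which WA-811 was highest, the rule names only *Pck1*, *G6pc* and *Igfbp1*. *Igfbp1*, a secreted binding protein of insulin-like growth factors, had log2 values of 11.11, 9.20, 9.86 and 10.39 in WA-811, WA-817, WA-833 and WA-836. Its control values were 10.24, 7.86, 9.68 and 9.74 in WC-820, WC-824, WC-834 and WC-840. The spread within each diet was thus larger than the difference between them (0.76 ± 0.53, standard error, adjusted p = 0.362 from limma).

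Both *G6pc* and *Pck1* encode enzymes of glucose production, and neither was called. *G6pc* had log2 values of 12.73, 11.74, 12.61 and 11.62 with alcohol and of 11.59, 11.36, 11.74 and 12.12 without alcohol, in the order of mice used above. WA-811 and WA-833 were above all controls and the other two were among them (difference 0.47 ± 0.27, standard error, adjusted p = 0.265 from limma). *Pck1* differed by 0.01 ± 0.12 (standard error, adjusted p = 0.960 from limma). Of the FOXO targets *Mttp*, which loads lipid onto apolipoprotein B, rose, with log2 values of 10.68 to 10.92 on alcohol and 10.37 to 10.50 on control (difference 0.35 ± 0.08, standard error, adjusted p = 0.0174 from limma). Without WC-834 or without WC-840 the call was lost. None of the 15 was lower by limma's test. At an unadjusted p under 0.05 in limma 4 were higher and 1 was lower, beside 31.9% of all probe-sets kept in either direction. The largest difference of the list was that of *Bcl6*, a transcriptional repressor named here after its values were seen, which was not called (-1.62, adjusted p = 0.0878 from limma). The median of the list was 0.14, beside 0.05 over all probe-sets kept.

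In the wider pathway few genes passed the test. Of 85 genes on 6 lists of pathway roles 71 had a probe-set of their own and 65 passed the filter. Of these 5 were higher (7.69%) and 1 was lower (1.54%), which is below the shares of all probe-sets kept given above. At the receptor none of 7 partners and adaptors and in the PI3-kinase and AKT module none of 9 genes was called by limma. At an unadjusted p under 0.05 in limma there were 3 and 1, beside 31.9% of all probe-sets kept. *Igf1r*, the receptor most like *Insr*, and *Grb10*, the adaptor most like *Grb14*, did not pass the filter. In the fit of all probe-sets *Igf1r* differed by 0.07 ± 0.09 and *Grb10* by 0.11 ± 0.07 (standard error each, adjusted p = 0.781 and 0.504 from limma).

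Of 14 genes that act as brakes on the pathway 2 were higher and none was lower by limma (5 and 0 at an unadjusted p under 0.05). Beside the 10.2% higher and 31.9% with an unadjusted p under 0.05 among all probe-sets kept, these counts are no result about the brakes as a group. *Inppl1* encodes SHIP2, a phosphatase that removes the lipid signal of PI3-kinase. Its log2 values were 7.66, 7.71, 7.84 and 7.79 on alcohol and 7.53, 7.46, 7.34 and 7.40 on control, in the same order of mice. The groups did not overlap and the difference was 0.32 ± 0.07 (standard error, adjusted p = 0.0208 from limma). The call was lost without WC-824, WC-834 or WC-840, 1 at a time. *Socs1*, a suppressor of cytokine and insulin receptor signaling, was 6.34 ± 0.11 in controls and rose to 6.68 ± 0.13 with alcohol (adjusted p = 0.0292 from limma; SD, n = 4 each), a call lost in 9 of 18 other settings, among them leaving out WA-817, WA-836, WC-824, WC-834 or WC-840 (adjusted p of 0.0286 to 0.0932 over the 18). *Grb14*, which also acts as a brake and is not on this list, moved the other way. The median difference of the 14 genes was 0.16.

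Among 12 substrates of AKT and genes of the TORC1 branch *Tbc1d1*, a Rab GTPase-activating protein that AKT phosphorylates, rose with a difference of 0.35 ± 0.09 (standard error, adjusted p = 0.0347 from limma). This call was lost in 12 of 18 other settings, among them leaving out any mouse but WA-833 and WA-836 (adjusted p of 0.0182 to 0.107 over the 18). The control mean of *Tbc1d1*, 5.55, lay just under the level of 5.56 that the filter asked of 4 arrays. The values of the other 11 did not pass the test. At an unadjusted p under 0.05 in limma 3 of the 12 were higher and 2 lower, beside 31.9% of all probe-sets kept. With 10.2% of all probe-sets kept called higher, the 1 call is no result about the list. Of 8 measured genes that insulin switches on in hepatocytes 1 was called higher and 1 lower. At an unadjusted p under 0.05 in limma 1 was higher and 2 were lower. Beside 10.2% called higher, 5.98% called lower and 31.9% at that p among all probe-sets kept, these counts are no result about the list. *Acaca*, which makes malonyl-CoA for fatty acid synthesis, rose, with log2 values of 9.47, 9.76, 10.03 and 9.38 on alcohol and 8.79, 9.15, 8.92 and 9.05 on control (difference 0.68 ± 0.15, standard error, adjusted p = 0.0142 from limma). *Scd1*, the desaturase that makes monounsaturated fatty acids, fell, with 12.48, 12.57, 12.81 and 12.71 on alcohol and 13.00, 13.08, 12.99 and 13.04 on control (difference -0.38 ± 0.08, standard error, adjusted p = 0.0162 from limma). The groups of both genes were apart, and the call of *Scd1* was lost without WC-824. The other 6 of 8 measured genes of this list were not called.

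**Figure D3:**
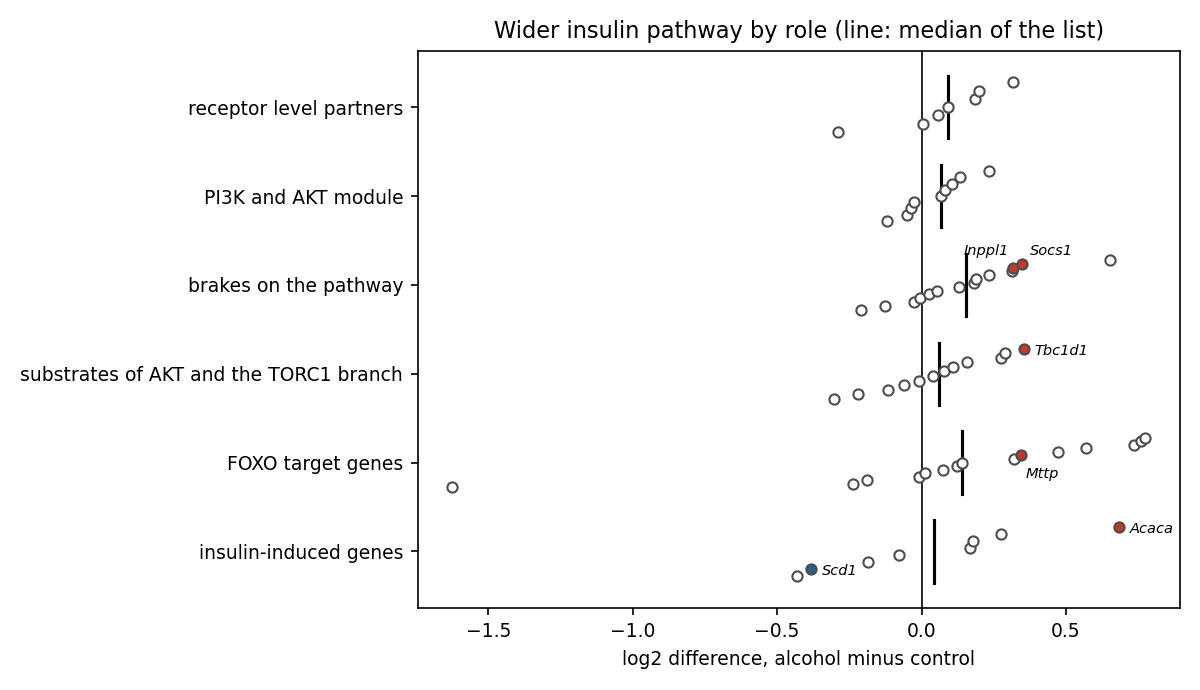
Log2 difference between the diets for the 65 pathway genes that passed the filter, 1 point a gene, by role (red, called higher; blue, called lower; open, not called; vertical line, median of the list). The named genes are the 6 that passed the test, and the medians of the lists lie between 0.04 and 0.16.

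Markers of the cells in the liver were read in the same mice. None of 5 hepatocyte and none of 11 Kupffer cell markers was called by limma (2 and 1 at an unadjusted p under 0.05), and no marker of T and NK cells, B cells or neutrophils passed the filter. The 1 cholangiocyte and the 1 adipocyte marker that passed were not called. Of 8 markers of sinusoidal endothelial cells *Lyve1* (1.23, adjusted p = 0.00812 from limma) and *Clec4g* (0.47, adjusted p = 0.00857) were higher. All 8 differences were positive, with a median of 0.23, and 4 had an unadjusted p under 0.05 in limma. Among all probe-sets kept 60% were positive, the median was 0.05 and 31.9% had an unadjusted p under 0.05. Of these probe-sets 10.2% were called higher and 5.98% lower. The intensities of the 8, summed on the linear scale, reached 4328 to 5202 with alcohol against 3536 to 3881 without it. *Clec4g*, the brightest probe-set, brought 66.5% of the gap between the mean sums, and the other 7 summed to 1993 to 2513 and 1896 to 2057, which overlap. Of 9 stellate cell markers that passed the filter *Lrat* was higher and *Reln* lower. At an unadjusted p under 0.05 in limma 2 were higher and 2 lower, to be read beside the same shares of all probe-sets kept. The sum of the 10 measured was 4474 to 5028 with alcohol and 4248 to 4547 without it, which overlap. *Dcn* and *Ecm1* made up 75.9% of that sum, and the other 8 summed to 1052 to 1223 with alcohol and 1054 to 1163 without it. The sums without these bright probe-sets were added after the values had been seen. All these sums and shares weigh each gene by the level of its probe-set, which cannot be compared between genes. The part of *Lyve1*, *Clec4g*, *Lrat* and *Reln* in the differences of *Grb14* and *Irs1* was not tested.

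The calls of the 7 genes were also read under 18 other settings. *Grb14* was lower and past the threshold in all 18, with adjusted p of 0.00184 to 0.0169 from limma. *Irs1* was higher in all 18 and past the threshold in 8 of them. *Insr*, *Akt1* and *Foxo1* kept the sign of their difference and were not called in any of the 18. The mean over probe-sets is among the 18 and is no separate test, because none of these genes has a further probe-set. The sign could change only with array weights, quantile normalization, median centring or a mouse left out. In the other settings the sign was fixed in advance, and only the call could change.

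**Figure D4:**
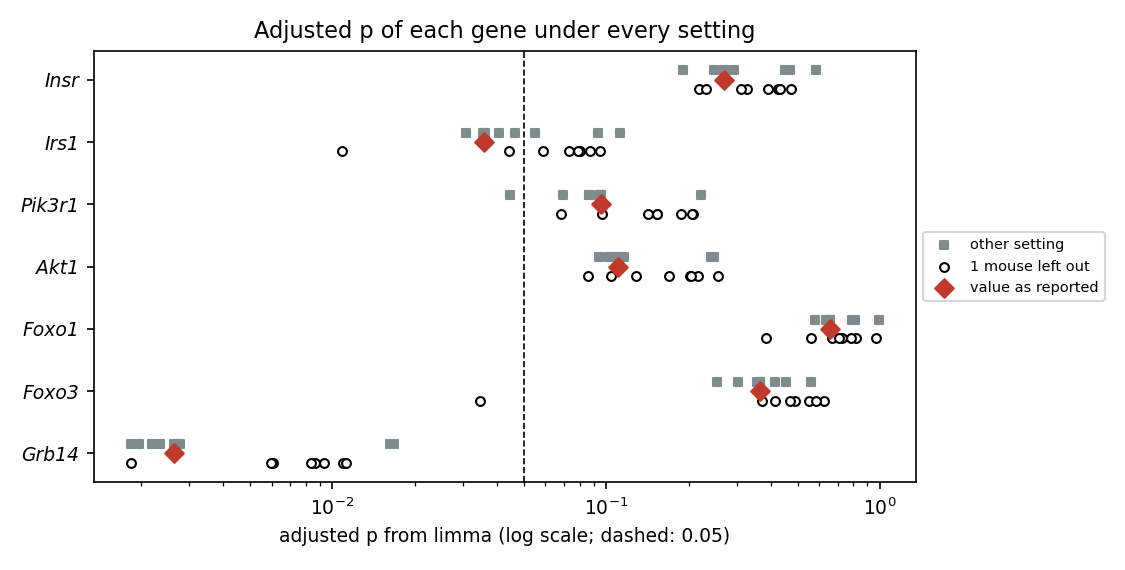
Adjusted p from limma of each measured gene as reported (diamond), under the other settings (squares) and with 1 mouse left out (circles), on a log axis with a dashed line at 0.05. *Grb14* stays left of the line, *Irs1* lies on both sides of it (0.0108 to 0.112), and *Pik3r1* and *Foxo3* cross it once each.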

How the data were processed

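Total RNA of 8 livers, 4 from alcohol fed and 4 from pair-fed control mice, was hybridized to Affymetrix Mouse Exon 1.0 ST arrays. The authors deposited log2 values, made by RMA (background correction, quantile normalization, summary over probes) in the Affymetrix Expression Console, with no version given in the sources used here. RMA gives no detection call, and the number of arrays limits the precision. The label gives a final alcohol level that differs slightly from the one in the paper's methods.

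Probe-sets were named through the platform annotation, in which 14996 of 23332 carry 1 gene symbol, 1019 several and 7317 none. No probe-set with several symbols names a listed gene. For genes with more than 1 probe-set, the one of highest mean stands for the gene. The methods' filter leaves 10430 probe-sets at a noise level not stated, so the 10430 probe-sets were kept that reached the highest level in at least 4 arrays (5.56 or more), and genes below it were read from the fit of all probe-sets. Diets were compared with limma 3.58.1 in R 4.3.3 (2 groups, 6 residual degrees of freedom, moderated variance), with Benjamini-Hochberg adjustment over all probe-sets kept. A gene was called at an adjusted p under 0.05. The model was tested on simulated data, and no result of that is given here.

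The listed genes and the lists of pathway genes and markers were chosen with earlier results of these data known. Genes to be named were all members, up to 4 called genes of each list with the largest change, *Igf1r* and *Grb10*, and *Pck1*, *G6pc* and *Igfbp1*. Some items of this rule are not reported here. Protein sequences were not used here. The alternatives were other filters, variance models, scalings, thresholds, array weights, the mean over probe-sets and leaving out each mouse.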

Additional observations from a re-analysis of the deposited data

How the results depend on the processing

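Of the 7 measured genes 1 was higher and 1 lower. No gene was higher without the filter, without moderation of the variance, after centring each array on its median, or at a P of 0.0001 with 1.5-fold (0 each), and 0 to 1 with 1 mouse left out. After median centring 2 were lower, *Grb14* and *Pik3r1*, and with 1 mouse left out 1 to 2. Of the pathway genes 5 were higher and 1 lower. The higher count was 0 without the filter and at the study's thresholds, 2 without moderation, 8 with array weights, 3 after median centring, and 1 to 7 with 1 mouse left out (1 without WC-834 or without WC-840, 2 without WC-824). The lower count was 0 without the filter and at the study's thresholds, 2 without moderation, with array weights and after quantile normalization or median centring, and 0 to 3 with 1 mouse left out (0 without WC-824, 2 without WA-836, 3 without WA-833). The calls of *Inppl1*, *Socs1*, *Tbc1d1*, *Mttp*, *Acaca* and *Scd1* were lost in 5, 9, 12, 4, 3 and 3 of 18 settings. None of the 7 measured genes and 6 pathway genes changed the sign of its difference. Only array weights, quantile normalization, median centring and leaving out a mouse could change it. The other settings left the difference of these genes as it was. Among them the mean over probe-sets was no separate test, because none of these genes has a further probe-set. The median difference over the probe-sets kept shifted by -0.06 with median centring and by -0.04 with quantile normalization. No paired analysis was possible because the labels record neither feeding pairs nor litters, and the diets share no animal numbers.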

Other observations

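The genes most like *Grb14* and *Irs1* from mouse to mouse were sought after the mean of each diet had been taken off. The search ran over 8 arrays and 7812 other probe-sets with 1 gene symbol that passed the filter. For *Grb14* they were *Ulk1* (r = 0.98), *Parn* (r = 0.97) and *Dele1* (r = 0.97). For *Irs1* they were *Adgrl4* (r = 0.97), *Nfatc3* (r = 0.97) and *Serinc1* (r = 0.96). These are the highest of many values from few mice, in which WA-811 is the extreme alcohol fed mouse for both genes, and they are given as a description with no test. *Ulk1*, a kinase that starts autophagy, had a log2 difference between the diets of -0.37, *Parn* of 0.06 and *Dele1* of -0.03.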
